A study of Mus musculus with 9 samples.

Results

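Nuclear-encoded respiratory chain and ATP synthase genes were followed across intact mouse cortex, stab-wounded cortex and cultures grown from the wound. They were the rows of the count table named Nduf with a subunit letter and number, Uqcr, Sdha to Sdhd, Atp5, or Cox4 to Cox8 with a subunit letter. Ndufa4l2 and 14 names containing -ps, which mark pseudogenes, were left out. The rule read names only and found 90 of 56748 genes: 41 of complex I, 4 of complex II, 8 of complex III, 19 of complex IV and 18 of complex V. Of these, 83 had enough reads to be tested, among 18093 tested genes. Ndufa4 was counted with complex I by its name, although its protein is now placed in complex IV, and Cyc1, a complex III subunit whose name the rule does not match, was treated as a related gene.

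The respiratory chain hands electrons from NADH (complex I) and succinate (complex II) through complex III to cytochrome oxidase (complex IV), which reduces oxygen. Complexes I, III and IV pump protons across the inner mitochondrial membrane, and the ATP synthase (complex V) makes ATP as the protons return. A few subunits are encoded in mitochondrial DNA and the rest in the nucleus. Several cytochrome oxidase subunits exist as a ubiquitous form and as a form restricted to certain cells, such as Cox6a2 of heart and skeletal muscle or Cox4i2, which is known from lung and from pericytes. Brain cells draw ATP from both glycolysis and this chain, and activated macrophages are known for a shift toward glycolysis.

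All 9 libraries came from wild-type C57BL/6J mice aged 2 to 3 months, with 3 libraries a group, described as biological replicates. Uninjured cortex and injured cortex were dissociated and sorted to remove debris, dead cells and CD171+/ACSA-2- neurons, so they hold mixed non-neuronal cells. The wound was a grid of lancet stabs, and its core was collected 1 day later by the sample labels, or 3 days later by the series' design text. Reactive cultures came from wound cores taken 1 day after injury, grown in medium with B27 and 10% fetal bovine serum for 6 days by the labels or 8 days by the design text, and were collected whole without a sort. Culture, serum, time and the lack of a sort therefore cannot be told apart in any comparison with the cultures. In these bulk samples, fewer cells of a type and less RNA per cell cannot be told apart either.

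Sequence upstream of the start sites is shown because nuclear respiratory factor 1 (NRF1), ETS factors such as GABP and YY1 are the textbook regulators of these genes. RefSeq promoter windows (GRCm38.p6, 250 bases before to 50 after the start) were matched by symbol for 69 of the 90 genes, which gave 74 windows. The letters CGCATGCG (NRF1), CCGGAAGT (ETS) and AAGATGGC (YY1) were searched on both strands, and none of the 3 contains another. NRF1 letters stood in 9 windows (12.2%, against 1.87% of all 32851 windows of that length), ETS letters in 5 (6.8% against 3.89%) and YY1 letters in 10 (13.5% against 2.75%). In all, 22 windows (29.7%, against 8.07%) held at least 1 of them. The 250 bases before the start are printed, 5′ to 3′ along the gene, with matched letters in capitals. They are shown for 3 genes with an NRF1 match that were called higher in the cultures and for the 2 genes with the smallest adjusted p there, Cox7b and Cox5a. The 3 are examples, and Ndufa8 also had a match and a higher call. None of the 3 was called with total counts. Each lost its call against uninjured cortex when some single library was left out. Cox6a1 lies at chr5:115348959-115349208 (minus strand), Atp5j at chr16:84834977-84835226 (minus strand, the 1 of its windows with matches, NRF1 first and YY1 after it), Ndufa11 at chr17:56717512-56717761 (plus strand), Cox7b at chrX:106015450-106015699 (plus strand) and Cox5a at chr9:57520982-57521231 (plus strand).
Cox6a1: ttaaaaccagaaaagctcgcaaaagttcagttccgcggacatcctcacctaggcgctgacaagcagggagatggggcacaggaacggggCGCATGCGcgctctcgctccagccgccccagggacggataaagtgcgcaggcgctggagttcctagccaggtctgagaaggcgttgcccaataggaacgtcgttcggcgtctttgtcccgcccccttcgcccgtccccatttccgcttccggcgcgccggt
Atp5j: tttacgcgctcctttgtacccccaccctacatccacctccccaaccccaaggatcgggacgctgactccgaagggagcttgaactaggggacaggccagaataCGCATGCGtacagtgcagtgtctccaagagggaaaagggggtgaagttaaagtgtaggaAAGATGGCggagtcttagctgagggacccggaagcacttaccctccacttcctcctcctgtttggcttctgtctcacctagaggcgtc
Ndufa11: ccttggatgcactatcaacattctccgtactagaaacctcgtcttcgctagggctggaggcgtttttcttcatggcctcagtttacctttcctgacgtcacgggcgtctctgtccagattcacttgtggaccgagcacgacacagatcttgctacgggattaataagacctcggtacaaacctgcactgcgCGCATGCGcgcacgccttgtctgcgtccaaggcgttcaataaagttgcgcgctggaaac
Cox7b: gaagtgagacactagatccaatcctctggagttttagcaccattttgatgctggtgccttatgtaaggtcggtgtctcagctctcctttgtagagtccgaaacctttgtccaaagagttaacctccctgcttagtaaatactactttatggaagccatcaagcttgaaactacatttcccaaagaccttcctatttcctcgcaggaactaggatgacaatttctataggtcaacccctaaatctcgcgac
Cox5a: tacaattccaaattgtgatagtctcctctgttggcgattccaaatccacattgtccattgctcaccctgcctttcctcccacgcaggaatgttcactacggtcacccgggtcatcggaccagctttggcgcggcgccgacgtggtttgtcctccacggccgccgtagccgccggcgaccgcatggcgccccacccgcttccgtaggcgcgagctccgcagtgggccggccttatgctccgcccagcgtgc
The stretches of Cox7b and Cox5a held none of the searched letters. Among tested members with a window, the 22 with a match had a median log2 fold change of 0.59 in reactive culture against uninjured cortex and the 45 without had 0.53, with 11 of the 22 and 22 of the 45 called higher.

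Libraries held 12205049 to 24302770 counts. Levels are given as CPM, counts scaled to a common library size with TMM factors, and folds as log2 ± SE from edgeR's quasi-likelihood test with Benjamini-Hochberg adjustment over all 18093 genes. A gene is called at an adjusted p under 0.05. In the median level of the tested members on the TMM scale, injured replicate 3 lay nearer to the uninjured libraries than to the other injured ones. Its median deviation from each gene's mean was -0.26 on the log2 scale, against -0.02 and 0.04 in injured replicates 1 and 2. The uninjured libraries were at -0.31, -0.21 and -0.14. As a share of all counts, the members were instead highest in injured replicate 3 (1.73%) among the 9 libraries, so its position depended on the scaling. Marker lists of astrocytes, microglia and oligodendrocytes summed to 3671 to 35376 CPM each in the uninjured libraries and to 89.9 to 1962 CPM in the cultures. The macrophage and monocyte list summed to 1352 to 1619 CPM in uninjured cortex, 2547 to 9577 CPM in injured cortex and 62225 to 75174 CPM in culture. Its 8 genes did not move together. In culture 4 were called higher and 3 lower against injured cortex (log2 folds of -7.64 to 8.73), and 5 and 2 against uninjured cortex. The neuron list summed to 16.6 to 29.9 CPM in uninjured cortex, 47.8 to 99.7 CPM in injured cortex and 19.7 to 34.1 CPM in culture, and 1 of its 7 tested genes was called higher in injured against uninjured cortex. The part of cell composition in the results below was not tested.

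**Figure D1:**
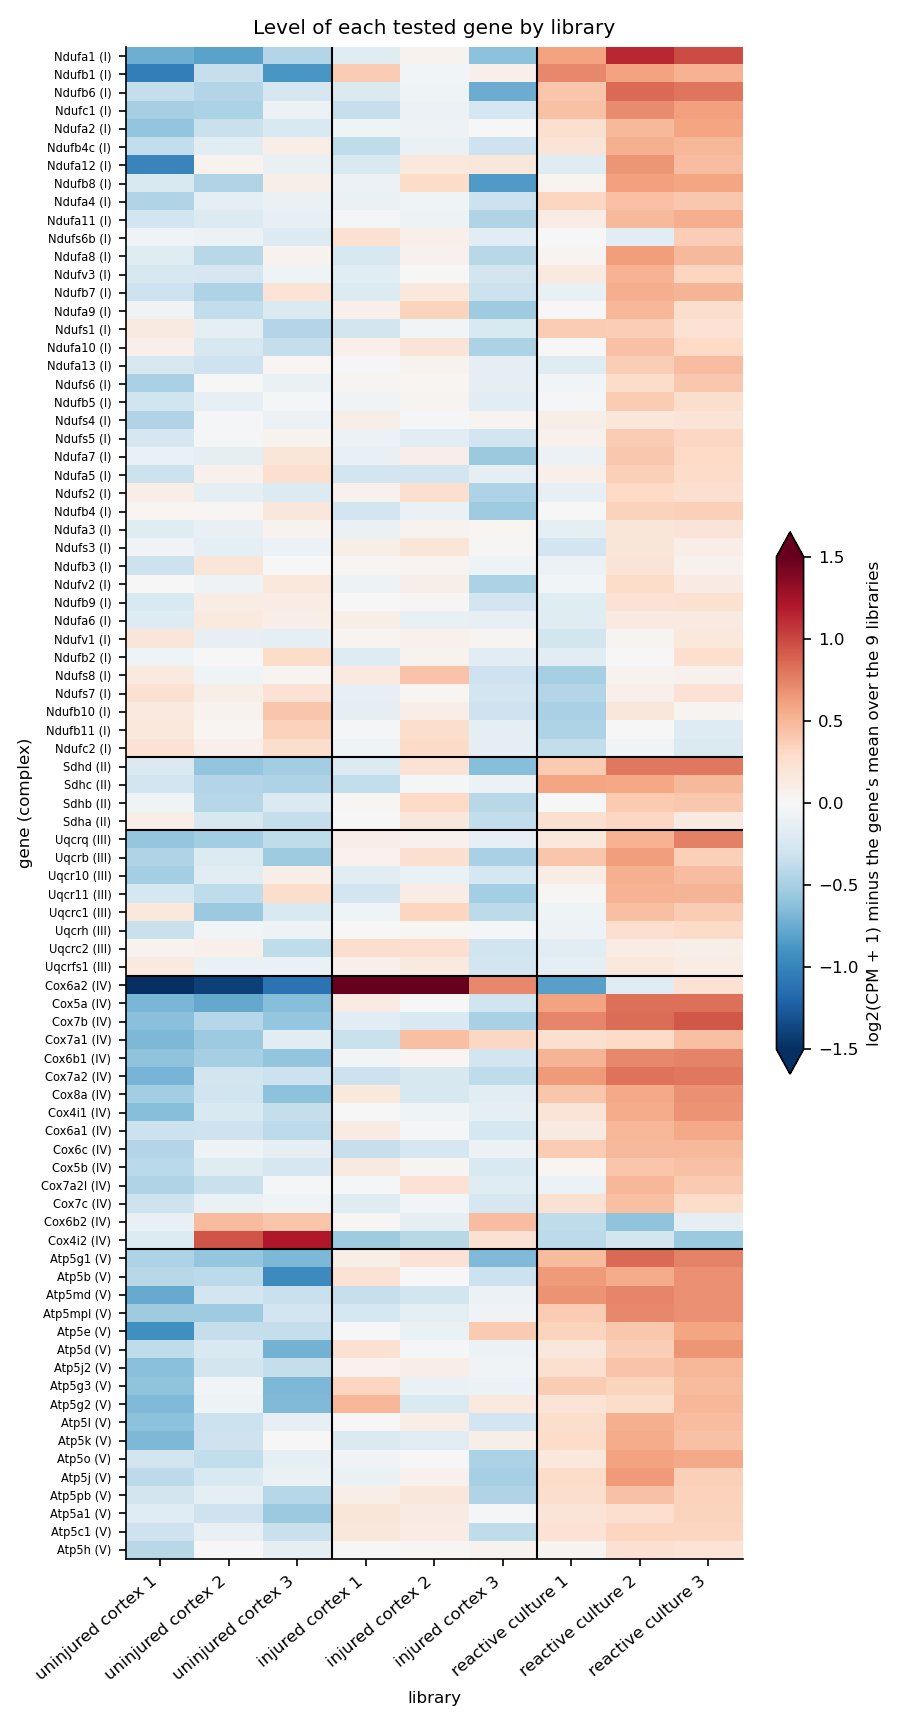
Each row is a tested gene (complex in brackets) and each column a library; the colour is log2(CPM + 1) minus the gene's mean over the 9 libraries. Complex IV and V rows are mostly red in the 3 culture columns, complex I rows are paler in culture replicate 1 (median -0.02, against 0.23 for complex IV), and Cox6a2 stands apart in the injured columns.

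Added together, the 90 genes took 1.41%, 1.52% and 1.71% of all counts in uninjured cortex, 1.54%, 1.48% and 1.73% in injured cortex, and 1.28%, 1.48% and 1.58% in culture, so their share of the RNA overlapped between all groups. TMM factors were 1.13 to 1.35 in uninjured cortex, 0.94 to 1.39 in injured cortex and 0.72 to 0.77 in culture. On the TMM scale the sum was 12462, 12694 and 12698 CPM in uninjured cortex, 15116, 15745 and 12389 CPM in injured cortex and 17076, 20640 and 20541 CPM in culture. Whether the set was higher in culture thus depended on the scaling. A change of scaling shifts the folds of all genes in a comparison by nearly the same amount. The set's position against other genes and the balance between its complexes could therefore hardly change with it, and their steadiness is no further support.

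In injured against uninjured cortex the set as a whole moved little. Of 83 tested genes, 2 were called higher (8.99% of all genes tested were called higher) and 0 lower (2.87%), and 10 had an unadjusted p under 0.05 (26.2% of all genes, with 11.9% called in either direction). limma-voom called 3 higher and 0 lower, and DESeq2's Wald test 3 higher and 1 lower. The median log2 fold change was 0.15, against 0.00 for all genes tested, and 62 of 83 genes lay above that median. Groups did not overlap for 17 genes on the higher and 2 on the lower side (16.1% and 12.5% of all genes, 28.6% in either direction).

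In reactive culture against injured cortex, 23 genes were called higher (20.0% of all genes tested) and 1 lower (30.1%, with 50.1% called in either direction), and 35 had an unadjusted p under 0.05 (57.1%). With total counts as the scale instead of TMM, 3 were called higher and 9 lower, beside 1649 and 7851 of all 18093 genes tested. The median log2 fold change was 0.37 against -0.19 for all genes under TMM, and -0.20 against -0.78 under total counts. Under both, it lay 0.56 to 0.59 above the median of all genes, a distance that a change of scaling leaves nearly fixed. The number called higher was much smaller without injured replicate 1 (11), injured replicate 3 (15), culture replicate 2 (10) or culture replicate 3 (10).

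In reactive culture against uninjured cortex, 42 genes were called higher (27.5% of all genes tested) and 1 lower (33.1%, with 60.5% called in either direction), and 47 had an unadjusted p under 0.05 (65.1%). With total counts 7 were called higher and 20 lower, beside 2540 and 8762 of all 18093 genes tested. The median was 0.58 against -0.17 for all genes under TMM and -0.15 against -0.89 under total counts, a distance of 0.75 and 0.74. On the TMM scale 77 of 83 genes lay above the median of all genes in each culture comparison. Groups did not overlap for 50 genes on the higher and 4 on the lower side (32.1% and 37.1% of all genes, 69.2% in either direction), and for 40 and 2 against injured cortex (25.8% and 33.8%, 59.7%).

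**Figure D2:**
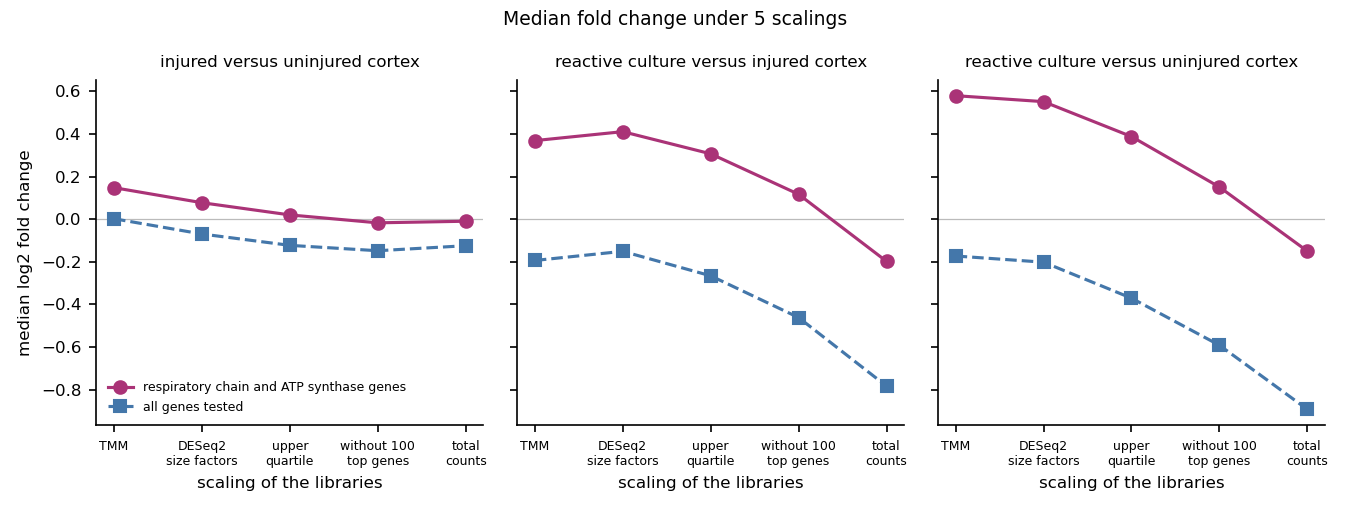
Median log2 fold change of the tested respiratory chain and ATP synthase genes (circles) and of all genes tested (squares) under 5 scalings, for each comparison. In both culture panels the 2 lines run down together, the circles going from 0.37 to -0.20 and from 0.58 to -0.15. The gap between the lines stays near 0.56 and 0.75, as a scaling shifts all genes nearly alike.

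Genes that kept a higher call in culture under all 5 scalings were few. Against injured cortex they were Ndufa1, Ndufb6 and Cox7b. Against uninjured cortex they were Ndufa1, Ndufb1, Cox5a, Cox6b1, Cox7b, Atp5b and Atp5g1. These lists were drawn up after the values were seen. Of the 24 genes called against injured cortex, 14 lost the call when some single library was left out, and so did 18 of the 43 called against uninjured cortex.

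A change from TMM to total counts shifts all complexes nearly alike. Under both, complex I, the NADH dehydrogenase, had the lowest median fold of the 5 complexes in culture against uninjured cortex. Its 7 core subunits encoded in the nucleus form the arm that carries the flavin and iron-sulphur clusters, and accessory subunits surround the core. In culture against uninjured cortex 9 of 39 tested genes were called higher and 0 lower on the TMM scale, with a median of 0.36. The 9 were 23.1%, while of all genes tested 27.5% were called higher and 33.1% lower. With total counts 2 were called higher and 16 lower, beside 2540 and 8762 of all 18093 genes tested. No core subunit was called on the TMM scale (median 0.09), although Ndufs1 was called higher against injured cortex (0.51, adjusted p = 0.047), and 6 of 7 were called lower with total counts (median -0.63), the exception being Ndufs1. Ndufv2, the core subunit with the highest mean CPM, was at 257, 242 and 285 CPM in uninjured cortex, 242, 271 and 184 CPM in injured cortex and 248, 309.7 and 277 CPM in culture. Its groups overlapped, with 0.09 ± 0.22 (adjusted p = 0.732) in culture against uninjured cortex, a value that turned negative under upper-quartile, trimmed and total-count scaling.

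A few small accessory subunits of complex I did differ. Ndufa1, a single-span subunit of the membrane arm, was at 83.3, 79.1 and 102 CPM in uninjured cortex, 123, 144 and 90.4 CPM in injured cortex and 211, 304 and 275 CPM in culture. All 3 culture libraries lay above all 6 cortical ones. The log2 fold change was 1.15 ± 0.24 against injured (adjusted p = 0.00186) and 1.58 ± 0.24 against uninjured cortex (adjusted p = 1.47e-04), and 0.61 and 0.85 with total counts. Ndufb6 was at 78.7, 74.5 and 84.7 CPM in uninjured cortex, 86.6, 96.3 and 59.7 CPM in injured cortex and 135, 183 and 177 CPM in culture, again with no overlap. It was called higher against injured (1.03 ± 0.22, adjusted p = 0.0025) and uninjured cortex (1.06 ± 0.22, adjusted p = 0.00155). Ndufc1 was called higher in both comparisons as well (0.83 and 0.94).

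Ndufb1 was the only complex I gene called in injured cortex. It was at 13.2, 21.9 and 14.8 CPM in uninjured cortex, 36.7, 27.2 and 29.6 CPM in injured cortex and 46.9, 43.1 and 40.7 CPM in culture, so the groups stood in that order without overlap. The injured value was 0.90 ± 0.23 (adjusted p = 0.0232) against uninjured cortex, and that of culture was 1.39 ± 0.23 (adjusted p = 2.85e-04). The injured call ended with total counts (0.77, adjusted p = 0.0902) and without uninjured replicate 1, uninjured replicate 3 or injured replicate 1 (adjusted p = 0.0655, 0.103 and 0.13). Ndufc2 had the lowest fold in culture against uninjured cortex, at 168, 152 and 174 CPM against 112, 139.9 and 124 CPM. Its groups did not overlap, but with TMM it was not called (-0.39 ± 0.20, adjusted p = 0.104). With total counts it was called lower (-1.12, adjusted p = 0.000279).

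Complex II is succinate dehydrogenase. Sdhc and Sdhd, which anchor the enzyme in the membrane and bind ubiquinone, were called higher in culture. Sdhc was at 119, 107 and 105 CPM in uninjured cortex, 112, 144 and 136 CPM in injured cortex and 219, 217 and 204 CPM in culture (0.95 ± 0.19 against uninjured cortex, adjusted p = 0.00105). Sdhd was at 209, 160.4 and 169 CPM, 210.3, 282 and 156 CPM and 319, 421 and 422 CPM in the same order (1.11 ± 0.26, adjusted p = 0.00285). Against injured cortex they reached 0.71 and 0.84 (adjusted p = 0.00841 and 0.0168). Both calls ended without injured replicate 1, and that of Sdhd also without culture replicate 2 or 3. Sdha, which carries the flavin, and Sdhb, which carries the iron-sulphur clusters, were not called: Sdhb was at 359, 277 and 322 CPM in uninjured cortex and 374, 493 and 496 CPM in culture (0.51 ± 0.25, adjusted p = 0.0954). Without injured replicate 3 Sdhb was called higher (0.50, adjusted p = 0.0447). With total counts no complex II gene was called and the median against uninjured cortex was 0.02. The difference between the pairs of subunits was not tested.

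Complex III, the cytochrome bc1 complex, had 3 of 8 tested genes called higher in culture against uninjured cortex (median 0.46). That was 37.5%, beside 27.5% of all genes tested. With total counts 2 were called lower (median -0.26), beside 8762 of all 18093 genes tested. The 3 called higher were small subunits. Uqcrq was at 95.6, 99.9 and 110.2 CPM in uninjured cortex, 154, 151 and 132 CPM in injured cortex and 159.8, 206 and 244 CPM in culture with no overlap between groups (0.99 ± 0.21 for culture against uninjured, adjusted p = 0.00152). Uqcrb followed with 0.87 ± 0.24 (adjusted p = 0.00731) and Uqcr10 with 0.56 ± 0.22 (adjusted p = 0.038). The Uqcr10 call ended in fits lacking any 1 of 5 libraries, namely the first or second uninjured, the first injured, and the second or the third culture library (adjusted p = 0.126, 0.0981, 0.0709, 0.123 and 0.0989). It also ended with DESeq2's size factors (adjusted p = 0.0501), upper-quartile factors (0.153), library sizes trimmed of the 100 most abundant and mitochondrial genes (0.615), total counts (a fold of -0.17), both other filters (0.0526 and 0.0743), a fit of only the 2 groups (0.0608) and without uninjured replicates 2 and 3 (0.0528). Uqcr10 was the only complex III gene called against injured cortex (0.56, adjusted p = 0.0473), and without any of 6 single libraries it was not. Uqcrfs1, the Rieske iron-sulphur protein, stayed at 0.07 and was called lower with total counts (-0.64). Uqcrc1, the large core protein with the highest mean CPM, was at 519, 316 and 399 CPM in uninjured cortex and 447, 640.2 and 609 CPM in culture, and its groups overlapped.

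Complex IV, cytochrome oxidase, showed the largest median difference of the 5 complexes in that comparison, again under both scalings, which shift all complexes nearly alike. Of 15 tested genes, 13 were called higher and 1 lower on the TMM scale (median 0.89). These were 86.7% and 6.67%, beside 27.5% and 33.1% of all genes tested. With total counts 3 were called higher and 2 lower (median 0.16), beside 2540 and 8762 of all 18093 genes tested. The 6 ubiquitous subunits that have a restricted counterpart, Cox4i1, Cox6a1, Cox6b1, Cox7a2, Cox7b and Cox8a, were all called higher on the TMM scale, with a median of 1.10. With total counts their median was 0.39 and 2 of the 6 were called. Against injured cortex 4 of the 6 were called on the TMM scale (median 0.69), and no ubiquitous subunit was called in injured against uninjured cortex.

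Cox7b had the smallest adjusted p of all members. It was at 75, 86.6 and 77.5 CPM in uninjured cortex, 104, 98.8 and 83.1 CPM in injured cortex and 194, 209 and 223 CPM in culture. All culture libraries lay far above the 6 cortical ones, among which the 2 groups overlapped. The fold was 1.39 ± 0.19 against uninjured (adjusted p = 6.30e-05) and 1.13 ± 0.19 against injured cortex (adjusted p = 4.15e-04), and 0.67 and 0.57 with total counts. Cox5a, which binds near the catalytic subunit and has no restricted counterpart, was at 101, 95.5 and 104 CPM in uninjured cortex, 178, 164 and 133 CPM in injured cortex and 248, 289 and 289.8 CPM in culture. Its 3 groups did not overlap, with 1.46 ± 0.20 in culture against uninjured (adjusted p = 6.94e-05), while the injured value of 0.66 ± 0.20 missed the threshold (adjusted p = 0.0506). Cox6b1 also stood in 3 separate steps, at 181, 195 and 182 CPM, 269, 282 and 227 CPM and 393, 455 and 463 CPM (1.23 ± 0.21, adjusted p = 3.08e-04). Cox4i1, the most abundant complex IV gene by CPM, was at 371, 494 and 453 CPM in uninjured cortex and 664, 849 and 924 CPM in culture (0.89 ± 0.24, adjusted p = 0.00707).

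Complex V, the ATP synthase, had 15 of 17 tested genes called higher in culture against uninjured cortex and 0 lower on the TMM scale (median 0.79). The 15 were 88.2%, beside 27.5% of all genes tested. With total counts 2 were called higher and 0 lower (median 0.08), beside 2540 and 8762 of all 18093 genes tested. On the TMM scale the culture libraries lay above all uninjured ones for each of the 17 (32.1% of all genes tested). As a share of all counts the complex V sum overlapped, at 0.378% to 0.440% in uninjured cortex and 0.427% to 0.483% in culture. Atp5b, the catalytic beta subunit of the F1 head, was at 868, 885 and 599 CPM in uninjured cortex, 1342, 1157 and 924 CPM in injured cortex and 1798, 1702 and 1868 CPM in culture. Each group lay above the one before it. The fold was 1.19 ± 0.28 for culture against uninjured (adjusted p = 0.00288), but 0.65 ± 0.27 against injured (adjusted p = 0.0663) and 0.54 ± 0.27 for injured against uninjured cortex (adjusted p = 0.236) missed the threshold. Against injured cortex DESeq2's Wald test (0.69, adjusted p = 0.00897) and limma-voom (0.66, adjusted p = 0.046) did call it higher, and the call against uninjured cortex ended without uninjured replicates 2 and 3 (1.04, adjusted p = 0.085). In injured cortex no complex V gene was called, although all 17 lay above the median of all genes and their own median was 0.30.

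All 3 genes for the c ring, the rotor that protons turn, were called in culture against uninjured cortex, among them Atp5g1 at 123, 114 and 107 CPM in uninjured cortex, 182, 199.7 and 108 CPM in injured cortex and 237, 308 and 288 CPM in culture (1.27 ± 0.25, adjusted p = 9.26e-04). The proteins of the 3 c-ring genes are identical once processed, so their levels add up to 1 product. All 5 small membrane subunits were called. Of these, Atp5md was at 36.7, 51.4 and 49.5 CPM, 49, 51.8 and 58.9 CPM and 100.4, 105 and 102 CPM across the groups (1.16 ± 0.19, adjusted p = 2.78e-04) and Atp5mpl at 66.2, 66.2 and 78.9 CPM, 80, 87.6 and 92.9 CPM and 126, 159 and 155 CPM (1.06 ± 0.19, adjusted p = 4.94e-04). Both were also called against injured cortex (0.95 and 0.76). In the F1 head 4 of 5 passed and in the peripheral stalk 3 of 4. The 2 that did not pass were Atp5c1 (0.54, adjusted p = 0.0564) and Atp5h (0.34, adjusted p = 0.149). With total counts 1 of 3 genes of the c ring, 0 of 5 small membrane subunits, 1 of 5 of the F1 head and 0 of 4 of the stalk were called higher. Differences between these parts were not tested.

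**Figure D3:**
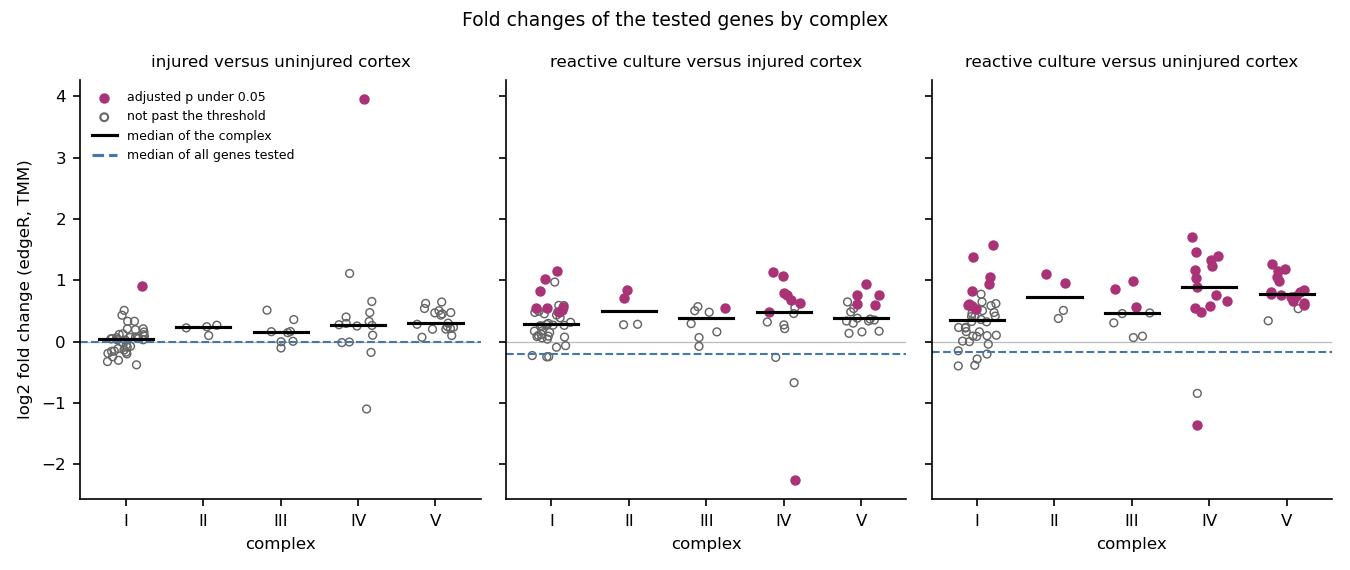
Log2 fold changes of the 83 tested genes by complex in each comparison on the TMM scale; filled points were called, black bars are medians of a complex and the dashed line is the median of all genes tested. In culture against uninjured cortex the bars rise from 0.36 for complex I to 0.89 for complex IV and 0.79 for complex V.

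Ratios between sums of counts in the same library do not depend on the scaling. Complex IV counts were 0.382, 0.452 and 0.384 of complex I counts in uninjured cortex, 0.52, 0.446 and 0.526 in injured cortex and 0.64, 0.573 and 0.618 in culture. All culture libraries were above all cortical ones, while the cortical groups overlapped. The ratio of complex V to complex I was 0.702, 0.777 and 0.582 in uninjured cortex, 0.962, 0.813 and 0.874 in injured cortex and 1.11, 0.893 and 0.956 in culture, so that both injured and culture libraries lay above uninjured ones and overlapped each other. The 6 ubiquitous cytochrome oxidase subunits against the 7 complex I core subunits gave 0.921, 1.22 and 1.07 in uninjured cortex, 1.47, 1.22 and 1.49 in injured cortex, and 2.12, 1.94 and 2.1 in culture. The mean ratio in culture was 1.92 times that in uninjured cortex. For these 3 ratios the exact two-sided permutation p in culture against uninjured cortex was 0.1, the smallest that 3 against 3 libraries can give (0.183 adjusted over 33 tests of 11 ratios), so no such test could pass 0.05. Complexes II and III moved less against complex I, by 1.28 and 1.11 times in the mean ratio.

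**Figure D4:**
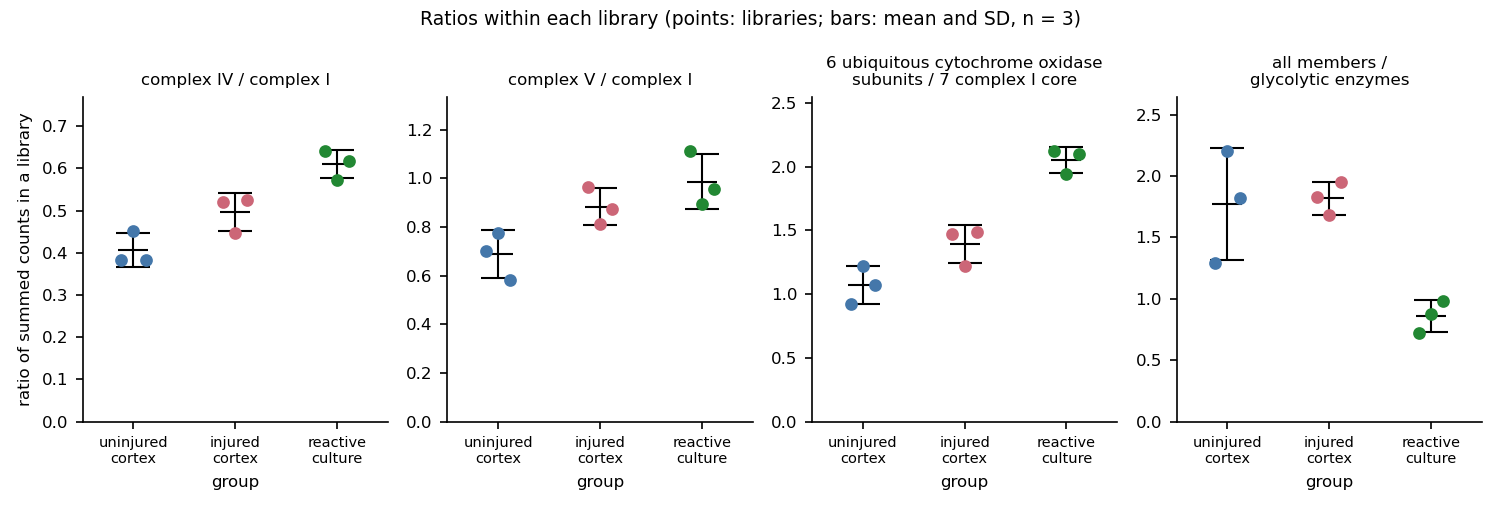
Ratios of summed counts within a library; points are libraries, bars the mean and SD of 3. Complex IV to complex I and the cytochrome oxidase to core ratio are highest in culture, where the latter lies between 1.94 and 2.12, and the ratio of all members to glycolytic enzymes is lowest there, between 0.726 and 0.979.

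Levels of different genes were compared per length of exon (GENCODE M21 gene models). The length joined all annotated exons of a gene and can exceed that of a single transcript. The order of genes therefore also depends on the annotation. In uninjured cortex Cox6a1 was highest at 452 ± 13.2 CPM per kilobase (SD, n = 3), followed by Cox8a at 311.6 ± 34.7 and Uqcr11 at 295 ± 74.1, whose values overlap within their SD. In culture Cox6a1 was at 764 ± 117 CPM per kilobase, ahead of Cox8a at 639.8 ± 58.3 and Ndufa1 at 628.5 ± 114, which do not differ beyond their SD. Atp5b, first by CPM, came after these with 422 ± 19.7 CPM per kilobase in culture, its gene model being longer. Across the 83 tested genes the Spearman correlation of exon length with the fold was 0.04, -0.02 and -0.09 in the 3 comparisons, given as a description. The members were also even within groups: their median SD between replicates was 0.20 on the log2 scale, against 0.30 for all genes tested and 0.29 for all genes of 50 CPM or more.

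Restricted cytochrome oxidase isoforms were far less abundant than their partners. Cox6a2, the heart and muscle form of subunit VIa, was at 0.827, 1.26 and 1.77 CPM in uninjured cortex, 31.2, 20 and 8.77 CPM in injured cortex and 2.39, 4.25 and 5.94 CPM in culture. The injured libraries were all above the others and differed among themselves, replicate 1 being highest and replicate 3 lowest. The log2 fold change was 3.96 ± 0.52 in injured against uninjured cortex (adjusted p = 5.08e-04), -2.26 ± 0.48 in culture against injured cortex (adjusted p = 0.00213) and 1.70 ± 0.50 in culture against uninjured cortex (adjusted p = 0.0115). It was the largest fold of any member in injured cortex. The calls against uninjured cortex in injured tissue and against injured cortex in culture held in the 20 settings run, while the call in culture against uninjured cortex ended with total counts (0.97, adjusted p = 0.109) and by limma-voom (1.64, adjusted p = 0.0809). Of Cox6a2 plus its ubiquitous partner Cox6a1, Cox6a2 made up 0.257%, 0.387% and 0.572% in uninjured cortex, 6.64%, 4.78% and 2.56% in injured cortex and 0.536%, 0.742% and 0.983% in culture (exact permutation p = 0.1, 0.1 and 0.2 for the 3 comparisons, 0.3, 0.3 and 0.343 adjusted over 12 share tests). Cox6a1 itself was not called in injured cortex (0.30, adjusted p = 0.437).

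Of the muscle list, myoglobin (Mb) was at 0 in all libraries, creatine kinase (Ckm) at 0.244 CPM or less, and the list summed to 3.42 to 7.99 CPM in uninjured cortex, 3.5 to 5.42 CPM in injured cortex and 30.7 to 33.3 CPM in culture. Most of the culture sum was Acta1, the skeletal muscle actin, at 23.2, 24.7 and 22.9 CPM. Of the list's 4 tested genes, 2 were called higher and 2 lower in culture against uninjured cortex, and 0 and 1 in injured against uninjured cortex. A list of 6 genes of plasmacytoid dendritic cells was chosen after the values were seen, so it cannot show which cells held Cox6a2. Ly6d was at 3.25, 3.86 and 6.94 CPM in uninjured and 55.1, 26.7 and 14 CPM in injured cortex, Ccr9 at 1.32, 1.3 and 1.46 CPM and 15.7, 2.98 and 2.11 CPM, and Klk1 at 0, 0.0898 and 0 CPM and 8.53, 2.46 and 0.748 CPM. These 3 of 6 listed genes were called higher in injured cortex, and in culture they were at 0 to 0.517 CPM. The other 3 were not called there, among them Siglech, which microglia share (-0.43, adjusted p = 0.479). Siglech dominates the list's sum of 746 to 1354 CPM in uninjured and 562 to 1055 CPM in injured cortex. The lymphocyte list summed to 14 to 40.1 CPM in uninjured cortex, 269.9, 133.8 and 83.8 CPM in injured cortex and 9.22 to 15.2 CPM in culture. Injured replicate 1 was highest and injured replicate 3 lowest. The macrophage and monocyte list stood in the same order (9577, 8547 and 2547 CPM), so that order was not particular to lymphocytes. The neutrophil list summed to 62.7 to 174 CPM in uninjured cortex, 448, 479 and 400 CPM in injured cortex and 18.3 to 34.5 CPM in culture. Of its 8 genes, 5 were called higher in injured against uninjured cortex. In culture Ly6d was at 0 to 0.0613 CPM. The part of any of these cells in the Cox6a2 values was not tested.

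Cox4i2, the form of subunit IV that responds to low oxygen in lung, ran the other way. It was at 4.69, 11.6 and 14 CPM in uninjured cortex, 3.53, 3.92 and 6.66 CPM in injured cortex and 3.99, 4.42 and 3.44 CPM in culture. Uninjured replicate 1 was low and overlapped the injured libraries, and all 3 culture libraries lay below uninjured cortex. With TMM and the quasi-likelihood test it was the only member called lower in culture against uninjured cortex (-1.35 ± 0.41, adjusted p = 0.0134). This call ended without uninjured replicate 3 (-1.06, adjusted p = 0.0627), culture replicate 3 (adjusted p = 0.051), or uninjured replicates 2 and 3 (-0.25, adjusted p = 0.725). The injured value was -1.10 ± 0.40 (adjusted p = 0.103). It was called lower by DESeq2's Wald test (adjusted p = 0.0346) and in fits lacking the first uninjured (-1.43, adjusted p = 0.0213) or the third injured library (-1.46, adjusted p = 0.0264). As a share of Cox4i2 plus Cox4i1 it was 1.25%, 2.3% and 3% in uninjured cortex, 0.607%, 0.704% and 1.25% in injured cortex and 0.596%, 0.518% and 0.371% in culture. The mural cell list had 5 of 8 genes called lower in injured against uninjured cortex, and Higd1b, a pericyte marker, was at 67.2, 89.9 and 154 CPM in uninjured cortex, 28.2, 35.5 and 27 CPM in injured cortex and 1.59, 2.53 and 3.83 CPM in culture. The list's sum was 859 to 1630 CPM in uninjured cortex, 506 to 538 CPM in injured cortex and 3252 to 3780 CPM in culture, where Acta2 alone, an actin of contractile cells, was at 3113 to 3650 CPM. Ndufa4l2, another gene known from pericytes and from low oxygen, was at 24.2, 37.5 and 45.6 CPM in uninjured and 12.8, 16.1 and 17.1 CPM in injured cortex (-1.22 ± 0.25, adjusted p = 0.00863). On the TMM scale it was also called lower in culture against uninjured cortex (-0.65). Unlike that of Higd1b, its level did not fall further from injured cortex to culture, where its fold was positive. A list of 10 genes known to respond to low oxygen summed to 782 to 959.6 CPM in uninjured cortex, 835 to 1453 CPM in injured cortex and 4805 to 5276 CPM in culture. Of these, 3 were called higher and 1 lower in injured against uninjured cortex, and 8 and 1 in culture against uninjured cortex (median 1.67), or 5 and 1 with total counts (median 0.96). The part of pericyte number and of oxygen supply in these values was not tested.

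Other restricted forms were near the detection limit. Cox7a1, the muscle form of subunit VIIa, was at 0.607, 0.764 and 1.28 CPM in uninjured cortex and 2.02, 2.12 and 2.5 CPM in culture. It was called higher (1.33 ± 0.48, adjusted p = 0.0311). The call ended with total counts (0.59, adjusted p = 0.352), trimmed sizes (0.154), upper-quartile factors (0.0623), no filter (0.0567), and with uninjured replicates 2 and 3 left out (0.0837). It also ended when any 1 of 5 single libraries was left out: without the first or second uninjured library the adjusted p was 0.0907 and 0.0989, and without 1 culture library it was 0.0506, 0.0603 and 0.0777. Its share of Cox7a1 plus Cox7a2 was 0.613% to 1.05% in uninjured cortex and 0.799% to 0.954% in culture. Cox6b2, the testis form of VIb, was at 3.31, 5.48 and 5.24 CPM in uninjured cortex and 2.58, 2.07 and 3.2 CPM in culture (-0.84, adjusted p = 0.0605). It missed the threshold there, but 8 of the 20 settings called it lower, among them DESeq2's Wald test (adjusted p = 0.0305), upper-quartile factors (0.0298), trimmed sizes (0.0231), total counts (0.0118) and fits lacking the first uninjured (0.0378) or the third injured library (0.0379). The 7 members that did not pass the filter on low counts were Cox6c2, Cox7b2, Cox8b, Cox8c, Ndufa11b, Ndufb11b and a second row named Atp5o (ENSMUSG00000116933), of which the last 3 had 0 counts in all libraries. Cox7b2 was at 0.0551, 1.39 and 1.34 CPM in uninjured cortex and at 0 in all cultures.

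**Figure D5:**
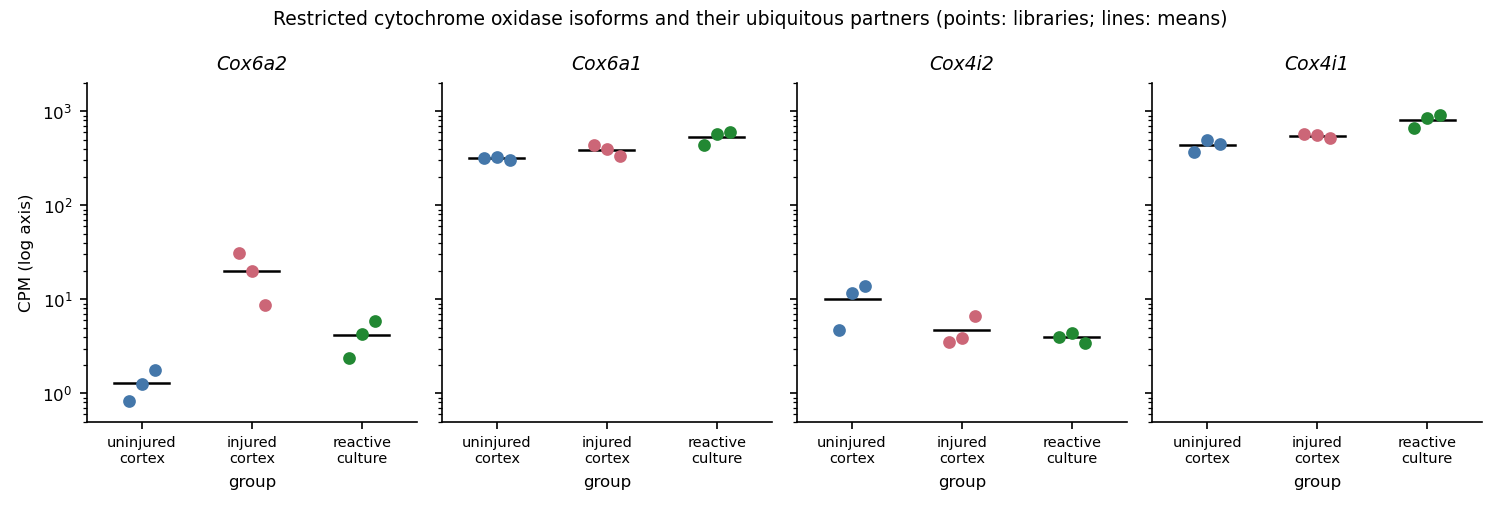
Level in CPM (log axis) of Cox6a2 and Cox4i2 and of their ubiquitous partners Cox6a1 and Cox4i1 in each library; points are libraries and lines the means of 3. Cox6a2 is highest in injured cortex (8.77 to 31.2 CPM) and Cox4i2 in uninjured replicates 2 and 3 (11.6 and 14 CPM), while the partners lie far above both in every library.

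Genes around the chain were compared with the same fit. Atpif1, which inhibits the ATP synthase when the proton gradient fails, was at 72.3, 70.8 and 83.2 CPM in uninjured cortex, 119.7, 152 and 92.8 CPM in injured cortex and 269, 353 and 335 CPM in culture. It was called higher in culture against injured (1.39 ± 0.23, adjusted p = 4.05e-04) and uninjured cortex (2.08 ± 0.24, adjusted p = 1.42e-05), also with total counts (0.86 and 1.36). Per Atp5b count it was 0.0833, 0.0801 and 0.139 in uninjured cortex, 0.0892, 0.131 and 0.1 in injured cortex and 0.15, 0.207 and 0.18 in culture, so the culture libraries lay above all cortical ones.

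The 13 subunits encoded in mitochondrial DNA had 5 called higher and 0 lower in culture against uninjured cortex (median 0.59) and 2 higher with total counts (median -0.12), among them mt-Nd6 (1.60, adjusted p = 4.75e-04). Against injured cortex 8 were called higher on the TMM scale (61.5%, beside 20.0% of all genes tested) and 0 lower, with a median of 0.96. In injured against uninjured cortex 0 were called in either direction, and the median was -0.24. Their summed counts were 0.737, 0.467 and 0.46 of the nuclear members' in uninjured cortex, 0.482, 0.512 and 0.266 in injured cortex and 0.413, 0.659 and 0.513 in culture, which overlap. Of 46 tested assembly factors, 16 were called higher (34.8%) and 7 lower (15.2%) in culture against uninjured cortex, beside 27.5% and 33.1% of all genes tested. With total counts 2 were called higher and 20 lower, beside 2540 and 8762 of all 18093 genes tested. Coa5 (complex IV) and Tmem126a (complex I) were among the higher ones (1.75 and 1.46), and Cox20 and Cox17 (complex IV), both at low levels, among the lower (-2.35 and -1.60). Coa5 was the only 1 called in injured cortex (0.81 ± 0.20, adjusted p = 0.0222), where 4 single libraries carried the call: it was lost, at an adjusted p of 0.105 and 0.0912, in fits lacking the second or the third uninjured library, and at 0.0898 and 0.0664 in fits lacking the first or the second injured one.

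Among 18 tested regulators of mitochondrial biogenesis, 4 were called higher (22.2%) and 3 lower (16.7%) in culture against uninjured cortex. Of all genes tested, 27.5% and 33.1% were. With total counts 0 were called higher and 10 lower, beside 2540 and 8762 of all 18093 genes tested. Ppargc1a, the coactivator PGC-1 alpha, was at 16, 11 and 14.7 CPM in uninjured cortex, 4.52, 6.48 and 12.4 CPM in injured cortex and 0.368, 0.574 and 0.391 CPM in culture. Its fold in culture was -4.94 ± 0.47 against uninjured cortex (adjusted p = 3.19e-06), opposite in sign to the members' median on the TMM scale. Its relatives Ppargc1b (1.56) and Pprc1 (1.41) were called higher, both without a call under total counts. Nrf1 (-0.02), Tfam (-0.05) and Yy1 (-0.41) were not called.

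Glycolytic enzymes had a larger median fold in culture than the chain. Of 16, 12 were called higher and 4 lower in culture against uninjured cortex on both the TMM and the total-count scale (median 1.79 and 1.08), led by Pkm (4.13 ± 0.39) and Ldha (4.13 ± 0.38). Of all genes tested in that comparison, 27.5% were called higher and 33.1% lower on the TMM scale, and 2540 and 8762 of 18093 with total counts. Counts of the members were 1.29, 2.2 and 1.82 times those of the glycolytic enzymes in uninjured cortex, 1.83, 1.68 and 1.95 times in injured cortex and 0.726, 0.875 and 0.979 times in culture. The cultures lay below both cortical groups, with a mean ratio 0.486 of that in uninjured cortex (exact permutation p = 0.1). Of 13 citric acid cycle enzymes, 8 were called higher and 0 lower in culture against uninjured cortex on the TMM scale, and 2 and 3 with total counts; Mdh2 (1.38) and Idh3a (1.12) led. Mitochondrial ribosomal proteins, another set encoded in the nucleus for the same organelle, had 49 of 77 called higher and 1 lower in culture against uninjured cortex on the TMM scale (median 0.72), and 6 and 8 with total counts. The members' counts stood at 3.23 to 3.4 times theirs in uninjured cortex, 3.24 to 3.63 times in injured cortex and 3.03 to 3.23 times in culture, a narrow range in all 9 libraries. Against cytosolic ribosomal proteins the members stood at 2.47, 1.85 and 2.11 times in uninjured cortex, 1.1, 1.41 and 1.17 times in injured cortex and 1.14, 1.23 and 1.14 times in culture, and 63 of 85 cytosolic ribosomal genes were called higher in injured against uninjured cortex (median 0.94; 31 with total counts) and 0 lower.

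Several members have processed pseudogenes or near copies, and how reads that match several places were counted is not given in the sources used here. Gapdh, a gene with many pseudogenes that glial cells and macrophages express strongly, was at only 8.22, 7.37 and 4.57 CPM in uninjured cortex, and mt-Co2 at 13.8, 17.1 and 12.5 CPM beside mt-Co1 at 2833, 1588 and 2236 CPM. These genes were named after their values were seen. The ratios to glycolytic and to mitochondrially encoded counts given above include them, and how far such low counts move those ratios was not tested. Levels of members with copies, such as Ndufb2, Cox7c, Uqcrh and the c-ring genes, are therefore uncertain, and comparisons between genes more so than comparisons of 1 gene between groups.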

How the data were processed

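Poly(A) RNA-seq of 9 libraries was deposited by the authors as 1 table of raw counts per gene. Reads were aligned with HISAT2 to GRCm39, per the submitters' processing notes; counting tool, annotation and strand setting: not given in the sources used here. Groups were taken from the sample labels. The series calls the samples biological replicates, but nothing says whether animals were pooled. Genes passing edgeR's filterByExpr were fitted in 1 quasi-likelihood model of all 9 libraries (edgeR 4.0.16, R 4.3.3) with TMM scaling, 6 residual degrees of freedom and Benjamini-Hochberg adjustment at 0.05. Library totals ran from 12205049 to 24302770 counts, and no 2 libraries of a group agreed within sampling noise over the members. Ratios and isoform shares were compared by exact two-sided permutation tests. Comparisons share groups, so their folds are not independent. Alternatives were 4 other scalings, DESeq2 1.42.0, limma-voom (limma 3.58.1), 2 other filters, a replicate block, fits of only the 2 groups compared and fits with libraries left out. The fit was tested on simulated data. Members, gene lists and alternatives were chosen with earlier results of these data known. Named genes were, per comparison and complex, up to 3 called members a direction with the smallest adjusted p, the highest mean CPM, the highest and lowest folds, called members against the main direction, restricted isoforms with their partners, and untested members. From related lists, up to 3 called genes a direction were named; others that the text names beyond this rule were chosen after their values were seen.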

Additional observations from a re-analysis of the deposited data

How the results depend on the processing

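The number of members called in the culture comparisons depended most on the scaling. Across the 5 scalings the distance of their median from that of all genes stayed nearly the same (0.115 to 0.147, 0.562 to 0.586 and 0.743 to 0.759 in the 3 comparisons). That follows from the arithmetic, since a scaling shifts all genes nearly alike, and is no separate support. In injured against uninjured cortex, 1 gene was called higher (2 with TMM) with library sizes that leave out the 100 most abundant and mitochondrial genes (trimmed sizes), with total counts, in a fit of only the 2 groups, and with uninjured replicates 2 and 3 left out, while DESeq2's Wald test called 1 lower. The median was -0.0172 with trimmed sizes and -0.00967 with total counts, and 0.36 above all genes with no filter. In reactive culture against injured cortex, trimmed sizes gave 10 higher, 3 lower and a median of 0.12, total counts 3, 9 and -0.20, the Wald test 36 higher, no filter 12 higher, and leaving out uninjured replicates 2 and 3 gave 14 higher. In culture against uninjured cortex, upper-quartile factors gave 4 lower and a median of 0.39, trimmed sizes 18 higher, 7 lower and 0.15, and total counts 7, 20 and -0.15. There, 2 were lower by the Wald test, with no filter and with 1 CPM in 3 libraries, 4 were lower in the fit of only the 2 groups, and 23 were higher and 0 lower without uninjured replicates 2 and 3. With no filter the median lay 1.71 above that of all genes. Leaving out uninjured replicates 2 and 3 assumes that the lone library varies like the other groups. The numbers in the library names of these replicates do not run on from those of the other libraries. The sources used here do not say why.

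Leaving out 1 library gave 1 to 4 higher and 0 to 2 lower in injured against uninjured cortex, 10 to 22 and 1 to 2 in culture against injured cortex, and 30 to 45 and 0 to 3 in culture against uninjured cortex. The medians ranged from 0.05 to 0.20, from 0.32 to 0.46 and from 0.49 to 0.70, and their distances from all genes from 0.06 to 0.29, 0.43 to 0.73 and 0.75 to 1.00. Signs of uncalled or scale-dependent values turned as follows; the cause was not tested. In injured against uninjured cortex Uqcrc1 was at -0.0165 with trimmed sizes, -0.00967 with total counts, -0.0345 to 0.379 with 1 library left out and -0.19 without uninjured replicates 2 and 3, where Cox6b2 was at 0.31. Cox7a2 was at -0.0221 with upper-quartile factors, -0.0641 with trimmed sizes, -0.0459 with total counts and -0.00341 to 0.161 with 1 library left out. In culture against injured cortex total counts gave -0.28 for Ndufv2, -0.25 for Sdhb, -0.0158 for Uqcr10, -0.24 for Uqcrc1, -0.0175 for Cox4i1, -0.38 for Cox7a1 and -0.10 for Cox6a1. Cox7a1 was at -0.0559 with trimmed sizes, and with 1 library left out it had its lowest value at -0.0803, while Cox4i2 ranged from -0.417 to 0.0923. In culture against uninjured cortex Ndufv2 was at -0.10 with upper-quartile factors, -0.33 with trimmed sizes and -0.63 with total counts, where Sdhb was at -0.20, Uqcr10 at -0.17 and Uqcrc1 at -0.25.

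Same-numbered replicates did not deviate together in every pair (correlations of -0.154 to 0.436), so the numbers were not taken as pairs. A replicate block called 2, 18 and 42 genes higher in the 3 comparisons, of which 2, 17 and 41 were among the 2, 23 and 42 called without it. Among the named genes it ended the call of Uqcr10 in culture against injured cortex (0.54, adjusted p = 0.0503). With 3 libraries a group, exact permutation tests could not go below 0.1.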
